A study of Mus musculus with 5 samples.

Results

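The cell cycle genes described here are 44 named genes, from the D-type cyclins that open G1 to the spindle proteins of mitosis, together with 3 inhibitors of cyclin-dependent kinases (CDKs). They were measured in ILC2s of the lung (group 2 innate lymphoid cells), lymphocytes without antigen receptors that reside in tissue. A gene was followed where the array's annotation pairs a probe set with that symbol alone, and the probe set with the highest mean over all arrays was used. This gave 42 of the 44 genes, among 22180 genes measured in all. Ccnb1 and Ccne2 had no probe set of their own under this rule and were not analysed here.

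The data came from 5 arrays of total RNA. There were 3 arrays of ILC2s from wild-type mice and 2 from IL-33 knockout mice, and every animal was an adult male that had received no challenge, according to the labels. The labels call the samples biological replicates and give no allele of the knockout, no strain and no number of mice per sample. Since they do not say that samples came from separate mice, p-values measure the spread between these samples. The design asks what differs in ILC2s of mice that lack IL-33, an alarmin cytokine.

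Cells enter the division cycle when D-type cyclins activate Cdk4 and Cdk6, which release E2F factors from the retinoblastoma proteins. E2F factors then switch on genes for cyclin E, for loading of the replicative helicase at origins and for nucleotide supply. Genes for mitosis follow later, and in resting cells many of them are held silent by the DREAM complex. The inhibitors p21 (Cdkn1a), p27 (Cdkn1b) and p19 (Cdkn2d) block CDK activity. Lung ILC2s of unchallenged adult mice are known as long-lived cells that divide little until alarmins reach them.

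Values are signals on the log2 scale, in which a difference of 1 is a doubling. The median gene lay between 4.44 and 4.52 on the 5 arrays. Of 13 measured ILC2 markers, including Gata3, Il7r and Klrg1, 12 lay above the upper quartile of all genes on every array. Libraries differed in other transcripts. Xist, which is transcribed in female cells, read 7.91 in knockout replicate 2 and 2.35 to 3.10 on the other arrays, against that sample's label of male. Of the Y-linked genes on that array, Kdm5d read 4.79 and Eif2s3y 6.14, both below the other arrays, while Uty, at 7.17, was above them. Epithelial markers, 11 genes, averaged 5.55 in the first knockout array and 4.46 in the second, with wild-type means of 4.07 to 4.18. Epcam, Krt19, Sftpc and Scgb1a1 were above all wild-type arrays in both. In the first, Scgb1a1 read 8.81, Bpifa1 8.52 and Scgb3a2 6.21. Not all markers rose: Krt18 was lowest of the 5 arrays in the first, at 4.26, and Cdh1 and Scgb3a2 in the second, at 4.73 and 2.07. Endothelial markers, 6 genes, averaged 5.31 and 5.73, with wild-type means of 4.95 to 5.13. Cdh5, at 6.26 and 7.14, and Cldn5, at 5.95 and 6.68, were above all wild-type arrays in both knockout arrays. Kdr was below them in both, and Tek stayed within the wild-type range. Pecam1 was lowest in the first knockout array and highest in the second, and Vwf was highest in the first and level with wild type in the second. The part of these transcripts in the results below was not tested.

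The genes split by role in how bright their probe sets were. All 5 D-type cyclin and kinase genes and all 3 inhibitors read above the median gene on every array. Of the 13 genes of the G1/S transition, 9 did so, and 3 stayed below the median on every array. Of 21 mitotic genes, 2 were above the median on every array, Ccnb2 and Aurka, and 14 were below it on every array. A gene's rank on an array is given as the percent of genes with an equal or lower signal. The middle of the 5 ranks ran from 55.6% to 99.5% for D-type cyclins and kinases, from 83.9% to 98.8% for inhibitors, from 25% to 98.8% for G1/S genes and from 4.27% to 59.2% for mitotic genes. Brightness also depends on the probes, so these ranks place a signal above or below the bulk of the array and do not order transcripts by abundance.

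**Figure D1:**
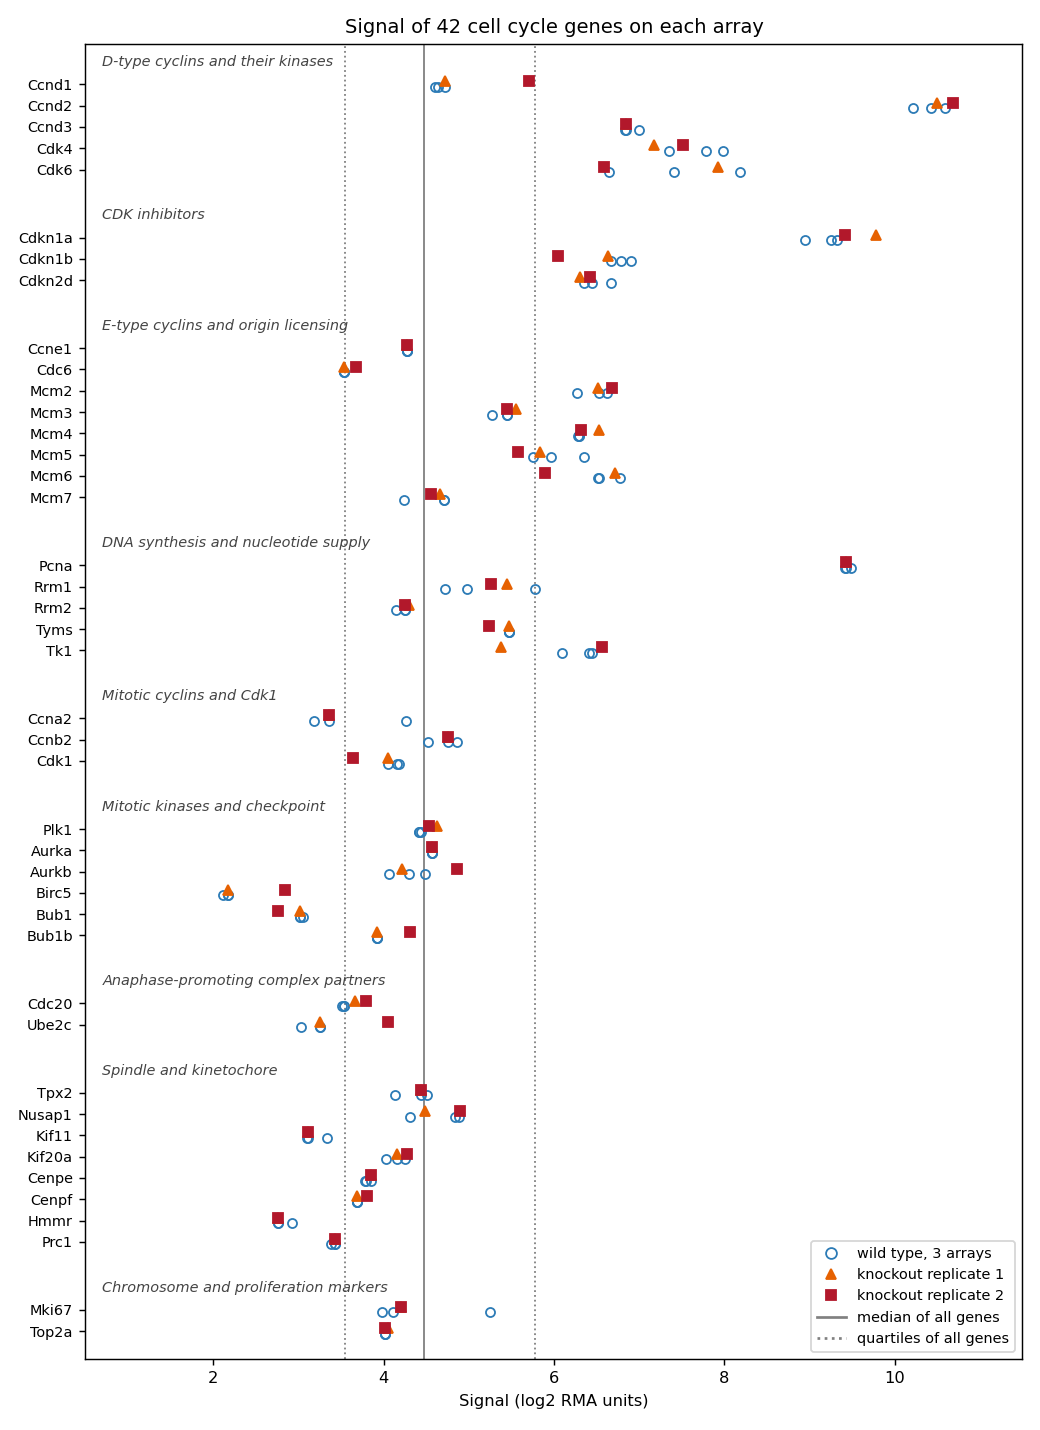
Signal in log2 RMA units of the 42 measured cell cycle genes, 1 line per gene, grouped by role. Open circles are the 3 wild-type arrays, the triangle and the square the 2 knockout arrays, the solid line the median of all genes and the dotted lines their quartiles, each averaged over the arrays. Most mitotic genes lie left of the median line, and all inhibitors and D-type cyclin genes lie right of it.

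**Figure D2:**
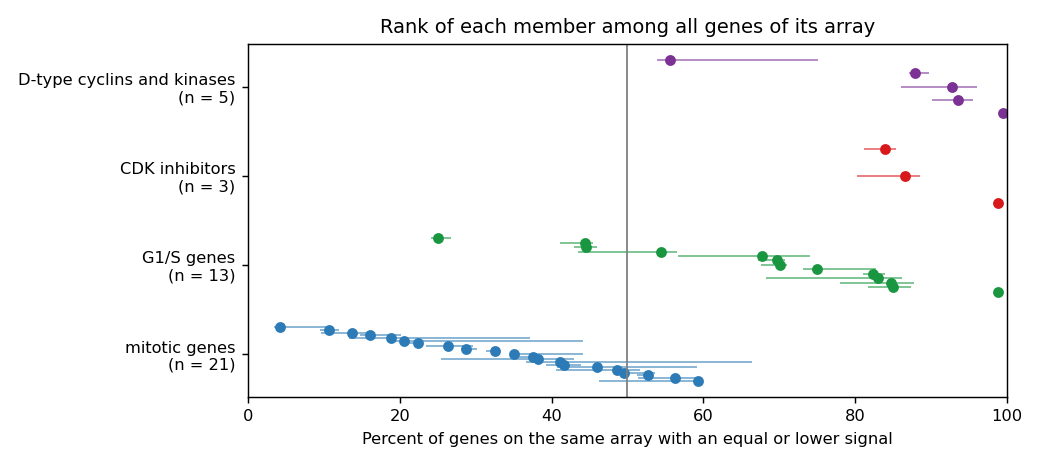
Rank of each member among all genes of the same array, as the percent of genes with an equal or lower signal. Points are the middle of 5 arrays and lines run from the lowest to the highest array; all 8 genes of the D-type cyclin and inhibitor groups lie above 50% throughout, and 14 of 21 mitotic genes lie below 50% throughout.

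Between the genotypes no member passed the test. With limma fitted over 16635 genes, 0 of 35 members tested had a Benjamini-Hochberg adjusted p below 0.05, and so had 0.0% of all genes. The members' adjusted p ran from 0.566 to 1.0. At an unadjusted p below 0.05 there were 2 members, Cdc20 and Plk1, both higher in knockout, which is 5.71% of the members against 7.64% of all genes tested. In the higher direction alone the share over all genes was 5.05%, and in the lower direction, with 0 members, it was 2.59%. The other 7 measured members, Ccna2, Birc5, Bub1, Ube2c, Kif11, Hmmr and Prc1, were among the 25% of genes with the lowest mean and were not tested. All 7 are mitotic genes. Just inside that limit on the mean were Cdc6 at 3.57 and Cdc20 at 3.61, and just outside it Ccna2 at 3.50 and Prc1 at 3.42.

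Both knockout arrays lay beyond all 3 wild-type arrays for 5 of the 35 members tested, 14.3%, where 18.0% of all genes tested did so. Cdkn1a, Mcm4, Plk1 and Cdc20 were higher in both knockout arrays, 4 members against a background of 11.6%. Cdkn1b was lower in both, 1 member against a background of 6.32%. Neither share stands above that of genes in general. The median difference, knockout minus wild type, was 0.04 on the log2 scale for the members tested and 0.04 for all genes tested. It was above 0 for 21 members (60.0%) and below 0 for 12 (34.3%), against 57.1% and 39.9% of all genes tested. With 3 arrays against 2, an exact permutation test cannot give a p below 0.1, so none is printed. In RNA of a whole population, fewer dividing cells and less RNA per cell cannot be told apart.

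The intervals give the range of differences that limma placed around each estimate. For 27 of the 35 members the 95% interval of limma lay within 1 log2 unit of 0, that is within a doubling or a halving, as it did for 71.4% of all genes. For 18 members (51.4%) it lay within 0.5 log2 units, against 36.2% of all genes. The 8 members with wider intervals were Ccnd1, Cdk4, Cdk6, Cdkn1b, Mcm6, Rrm1, Tk1 and Mki67. Narrow intervals can also come from equal values. Ccne1 and Aurka had 1 value on all 5 arrays, so their intervals, from -0.11 to 0.11, rest on the spread of other genes.

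**Figure D3:**
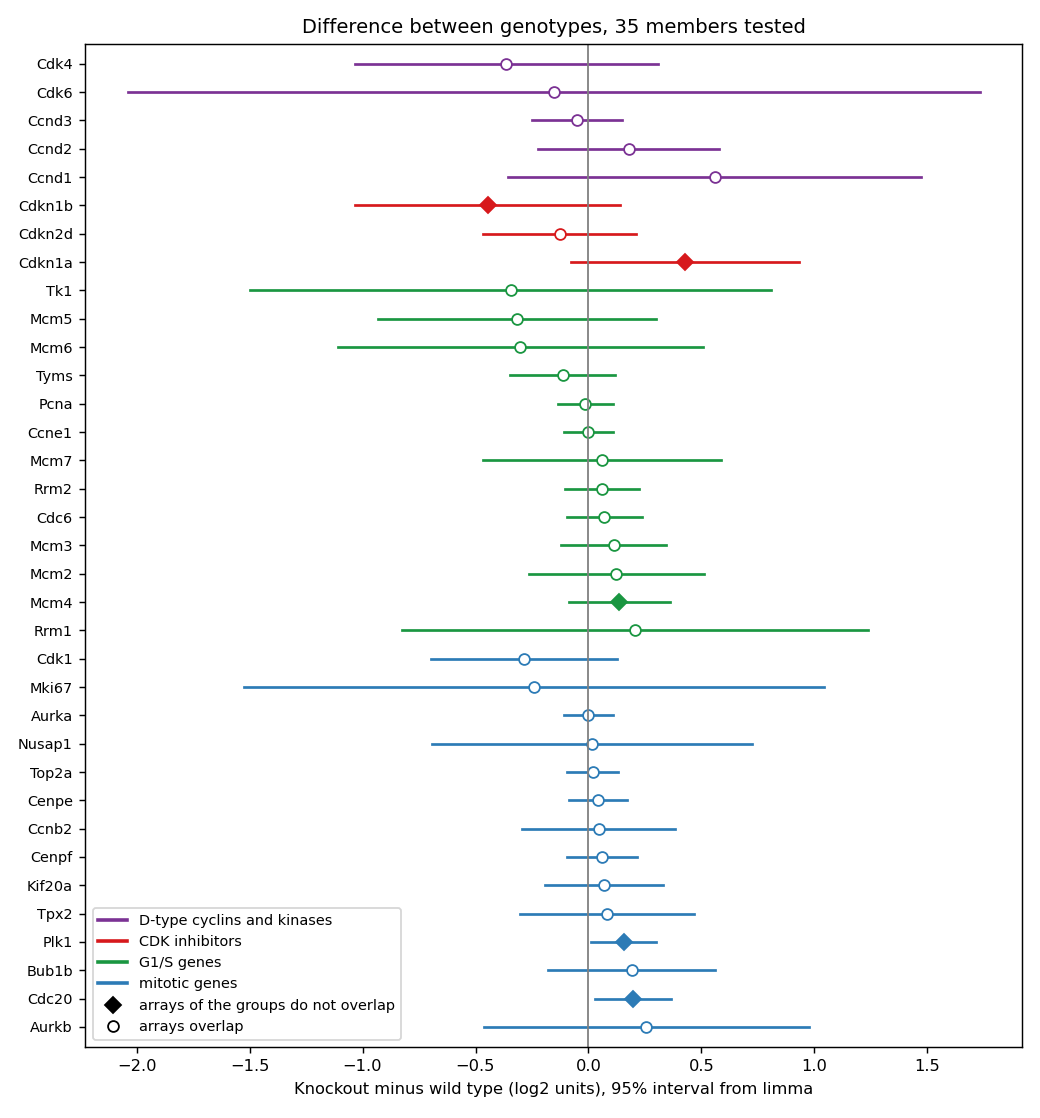
Difference between knockout and wild-type means in log2 units for the 35 members tested, with the 95% interval from limma, coloured by role. Filled diamonds mark the 5 members whose arrays do not overlap between the groups. The intervals of Cdc20 and Plk1 lie above 0 before adjustment, and all others cross 0.

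Among the D-type cyclins, which bind Cdk4 and Cdk6, Ccnd2 read 10.43, 10.21 and 10.59 in wild type and 10.50 and 10.68 in knockout, a rank of at least 99.4% on every array. The groups overlapped, and the difference was 0.18 (SE 0.14). Ccnd3 read 6.84, 6.999 and 6.84 in wild type and 6.84 in both knockout arrays, so its values were nearly level. Ccnd1 read 4.61, 4.63 and 4.72 in wild type, 4.72 in knockout replicate 1 and 5.70 in knockout replicate 2. Only that last array stood above the rest. The difference of Ccnd1 was 0.56 (SE 0.33), with an interval from -0.36 to 1.47. It was 0.07 without knockout replicate 2 and 1.05 without replicate 1, and in the latter fit limma's adjusted p was 0.0322.

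The partner kinases of these cyclins phosphorylate the retinoblastoma proteins. Cdk4 read 7.98, 7.36 and 7.79 in wild type and 7.18 and 7.51 in knockout, with overlap, and differed by -0.36 (SE 0.24). Cdk6, the other G1 kinase, read 6.64, 7.41 and 8.18 in wild type and 7.93 and 6.59 in knockout. Its wild-type arrays alone spanned 1.54 log2 units, and the knockout arrays lay on opposite sides of the wild-type mean. The interval of its difference of -0.15 ran from -2.04 to 1.73, the widest of the members tested, so that a doubling and a halving both lie inside it. Its difference was -0.83 without knockout replicate 1 and 0.52 without knockout replicate 2.

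The CDK inhibitors had differences of opposite sign, and none passed the test. Cdkn1a, which encodes p21, a target of p53 that blocks cyclin-CDK complexes, read 9.32, 8.95 and 9.25 in wild type and 9.78 and 9.42 in knockout. Both knockout arrays were above all wild-type arrays, although replicate 2 exceeded the highest of them only slightly. The means were 9.17 ± 0.20 (SD, n = 3) and 9.60 ± 0.25 (SD, n = 2), a 1.35-fold difference of 0.43 on the log2 scale with an interval from -0.08 to 0.93. Limma's unadjusted p was 0.0776 and its adjusted p 0.623. The difference was 0.61 with replicate 1 as the only knockout array and 0.25 with replicate 2.

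Cdkn1b, which encodes p27, the inhibitor that builds up in resting lymphocytes, read 6.90, 6.67 and 6.79 in wild type and 6.63 and 6.05 in knockout. Both knockout arrays were below all wild-type arrays, replicate 1 by little and replicate 2 by more. The means were 6.79 ± 0.12 (SD, n = 3) and 6.34 ± 0.41 (SD, n = 2), a difference of -0.45 with an interval from -1.03 to 0.14 and limma's adjusted p of 0.623. Without knockout replicate 2 the difference was -0.16. Cdkn2d, an inhibitor of Cdk4 and Cdk6, read 6.45, 6.35 and 6.67 in wild type and 6.30 and 6.42 in knockout. Its groups overlapped and it differed by -0.13 (SE 0.12).

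The MCM helicase unwinds DNA at replication origins. Of its 6 subunit genes, Mcm2 to Mcm6 read above the median gene on every array, and Mcm7 lay on either side of it. Mcm4 read 6.29, 6.28 and 6.29 in wild type and 6.53 and 6.32 in knockout. The wild-type arrays spanned 0.01 log2 units, so that a knockout value only 0.03 above their mean, in replicate 2, still lay outside them. The difference of Mcm4 was 0.14 (SE 0.08), and limma's adjusted p was 0.623. Mcm2 and Mcm3 differed by 0.12 and 0.11 and Mcm7 by 0.06, all with overlap. Mcm5 and Mcm6 differed by -0.32 and -0.30. Mcm6 read 6.52 to 6.77 in wild type and 6.72 in knockout replicate 1, and 5.90 in replicate 2 alone, so its difference changed sign, to 0.11, without that array. The subunits of this hexamer had differences of both signs, 4 above and 2 below 0.

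The cyclin E gene Ccne1 and the licensing factor gene Cdc6 read below the median gene on every array. Ccne1, a cyclin E gene that drives entry into S phase, had the same deposited value of 4.27 on all 5 arrays. Cdc6, which recruits the helicase to origins, read 3.54 on 4 arrays and 3.68 in knockout replicate 2. Neither had any spread among wild-type arrays.

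Genes of DNA synthesis ranged from bright and level to variable. Pcna, the sliding clamp of DNA polymerases that also serves in DNA repair, read 9.48, 9.43 and 9.42 in wild type and 9.43 in both knockout arrays. It ranked at 98.7% or higher on every array, and its interval ran from -0.14 to 0.11. Of the ribonucleotide reductase subunits, Rrm1 spanned 4.72 to 5.77 in wild type, with knockout values of 5.45 and 5.27 inside that range. Rrm2, the subunit whose level follows S phase, stayed between 4.14 and 4.30 on all arrays, below the median gene. Tyms, thymidylate synthase, read 5.47 on 4 arrays and 5.24 in knockout replicate 2. Tk1, the thymidine kinase of dividing cells, read 6.41, 6.09 and 6.45 in wild type, 6.56 in knockout replicate 2 and 5.38 in knockout replicate 1. One knockout array was thus the lowest and the other the highest, and the interval of its difference of -0.34 ran from -1.50 to 0.81. That difference was 0.25 without knockout replicate 1 and -0.94 without replicate 2.

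The mitotic CDK and cyclin A2 read below the median gene on every array, while the cyclin B gene Ccnb2 read above it. Cdk1, the kinase that starts mitosis, read 4.18, 4.05 and 4.16 in wild type and 4.05 and 3.64 in knockout, ranking between 25.4% and 42.9% on the arrays. Knockout replicate 2 was the lowest array and replicate 1 equalled the lowest wild-type array, so the groups were not separate. The difference was -0.28 (SE 0.15), with an interval from -0.70 to 0.13. It was -0.49 without knockout replicate 1 and -0.08 without replicate 2. Ccnb2, a cyclin B gene, read 4.75 in both knockout arrays and 4.52 to 4.86 in wild type. Ccna2, cyclin A2, which was too dim for the test, read 4.27 in wild-type replicate 2 and 3.18 to 3.36 elsewhere. That 1 wild-type array was also highest in the mean of 5 neutrophil markers, 4.11 against 3.08 to 3.82 on the other arrays. Among these markers only Retnlg, at 5.36, was highest there. S100a8, S100a9 and Csf3r were highest in knockout replicate 1, and Ly6g in wild-type replicate 1. The part of such cells in the Ccna2 value was not tested.

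Mitotic kinases and checkpoint genes included Plk1, a polo-like kinase that drives mitotic entry. Plk1 read 4.44, 4.41 and 4.41 in wild type and 4.63 and 4.53 in knockout. The knockout arrays were the top 2 of the 5, and the wild-type arrays spanned 0.03 log2 units. The difference was 0.16 (SE 0.05), a 1.11-fold difference at a signal close to the median gene, with limma's unadjusted p of 0.0389 and adjusted p of 0.600. Aurka, an Aurora kinase gene, had 1 value, 4.57, on all 5 arrays. Aurkb, its relative in the chromosomal passenger complex, read 4.87 in knockout replicate 2 and 4.07 to 4.49 on the others. Its difference of 0.26 was -0.07 without that array and 0.58 without replicate 1. Bub1b, of the spindle checkpoint, read 3.92 on 4 arrays and 4.31 in knockout replicate 2. Birc5, which encodes survivin, and Bub1 were too dim for the test, at most 2.84 and 3.06.

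The partners of the anaphase-promoting complex, the ubiquitin ligase that ends mitosis, were also dim. Cdc20, its activator, read 3.54, 3.51 and 3.54 in wild type and 3.66 and 3.80 in knockout. Both knockout arrays lay above the wild-type arrays, which were again within 0.03 log2 units. The difference was 0.20 (SE 0.06), a 1.15-fold difference with limma's unadjusted p of 0.0305 and adjusted p of 0.566. With replicate 2 as the only knockout array it was 0.27, with limma's adjusted p of 0.0438, and with replicate 1 it was 0.13. Cdc20 ranked at most at 29.6% on any array. Ube2c, the ubiquitin-conjugating enzyme of that complex, was left out as dim. It read 3.03 to 3.26 on 4 arrays and 4.06 in knockout replicate 2.

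Spindle and kinetochore genes move and hold chromosomes in mitosis. The 8 measured genes differed by -0.07 to 0.08. Of the 5 that were tested all had a difference above 0, where 57.1% of all genes tested did. None passed, with limma's adjusted p between 0.663 and 1.0. Kif11 and Hmmr, which were not tested, had differences below 0. Nusap1, a microtubule-bundling protein gene, read 4.31 to 4.88 in wild type and 4.48 and 4.90 in knockout. Tpx2, which activates Aurora A on the spindle, read 4.13 to 4.51 in wild type and 4.44 in both knockout arrays. Kif20a, a kinesin of cytokinesis, read 4.03 to 4.26 in wild type and 4.15 and 4.28 in knockout. The kinetochore motor gene Cenpe and its partner Cenpf lay between 3.69 and 3.85 on all arrays. Kif11, Hmmr and Prc1 stayed between 2.76 and 3.43 on all arrays and were not tested.

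The usual markers of proliferation gave no difference beyond the spread. Mki67, the gene of the Ki-67 antigen, read 3.98, 4.11 and 5.24 in wild type and 4.20 in both knockout arrays. Wild-type replicate 3 alone was high. The means were 4.45 ± 0.70 (SD, n = 3) and 4.20, the difference was -0.24 with an interval from -1.53 to 1.04, and without wild-type replicate 3 it was 0.16. Top2a, the topoisomerase of dividing cells, read 4.01 on 4 arrays and 4.05 in knockout replicate 1. It did not share the high value of Mki67 in wild-type replicate 3.

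Promoters of the members were searched for 3 motifs that control genes of the cycle. RefSeq promoters of assembly GRCm38.p6, with 250 bases before and 50 after each gene start, were given for 36 of the 44 genes. The cell cycle genes homology region (CHR), spelled TTTGAA or TTCGAA, is the element bound by DREAM and later by FOXM1 complexes. CCAAT is bound by NF-Y, and E2F sites were spelled TTNNCGC with C or G at each N. Both strands were searched, and 3 of the 23 E2F matches in members overlapped a CCAAT match. The stretches below show 120 bases before the start, 5′ to 3′ on the gene's strand. They are shown for members whose arrays did not overlap between the groups and have an entry, and for Cdk1 and Pcna, a dim mitotic and a bright S-phase gene. Capitals mark matches to any of the 3 motifs.
Cdc20 (chr4:118437344-118437463, minus strand): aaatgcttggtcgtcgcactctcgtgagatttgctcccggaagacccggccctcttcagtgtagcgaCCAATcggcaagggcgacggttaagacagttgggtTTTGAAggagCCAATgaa
Plk1 (chr7:122159315-122159434, plus strand): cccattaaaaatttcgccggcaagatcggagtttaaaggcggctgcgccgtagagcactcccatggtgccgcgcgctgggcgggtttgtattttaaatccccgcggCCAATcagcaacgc
Cdk1 (chr10:69352913-69353032, minus strand): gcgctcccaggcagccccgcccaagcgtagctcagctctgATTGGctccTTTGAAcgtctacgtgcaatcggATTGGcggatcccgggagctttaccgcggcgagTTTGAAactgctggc
Pcna (chr2:132253181-132253300, minus strand): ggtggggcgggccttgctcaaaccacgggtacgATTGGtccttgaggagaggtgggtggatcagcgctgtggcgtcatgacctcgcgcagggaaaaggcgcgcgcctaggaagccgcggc
Cdkn1a first start (chr17:29090859-29090978, plus strand): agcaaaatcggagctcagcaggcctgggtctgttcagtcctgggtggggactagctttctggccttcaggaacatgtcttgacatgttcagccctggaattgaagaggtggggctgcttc
Cdkn1a second start (chr17:29093649-29093768, plus strand): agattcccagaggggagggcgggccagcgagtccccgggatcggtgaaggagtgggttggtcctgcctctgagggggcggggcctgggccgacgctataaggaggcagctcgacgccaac
Cdkn1b (chr6:134920281-134920400, plus strand): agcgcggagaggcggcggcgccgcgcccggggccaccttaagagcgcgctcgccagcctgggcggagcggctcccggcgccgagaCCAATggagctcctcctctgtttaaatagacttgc

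The Cdc20 and Cdk1 stretches hold a CHR close to the start with CCAAT matches beside it. In Plk1 the stretch holds CCAAT alone, and its CHR begins 30 bases after the start. Neither Cdkn1a start shows a match. Of 18 mitotic genes with a promoter, 14 held a CHR (77.8%), against 2 of 12 G1/S genes (16.7%), 17.0% of the genes tested on the arrays and 21.7% of all 27025 genes in the table. CCAAT was in 16 of 18 mitotic promoters (88.9%) and 8 of 12 G1/S promoters (66.7%), against 41.6% of genes tested. E2F spellings were in 7 of 12 G1/S promoters (58.3%) and 4 of 18 mitotic promoters (22.2%), against 15.8% of genes tested. The E2F genes included Mcm3, Mcm5, Mcm6, Mcm7, Rrm1, Rrm2 and Cdc6. None of the 3 inhibitors and none of the 3 D-type cyclin and kinase genes with an entry held a CHR or an E2F spelling in this window. In the 50 bases on either side of the start, a window chosen after the positions were seen, 13 of 18 mitotic genes held a CHR (72.2%), against 4.37% of genes tested. Of the 14 mitotic genes with a CHR, 10 read below the median gene on every array, as did 14 of all 21 mitotic genes measured. A match is a string of letters and was not tested as a site.

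The 2 knockout arrays were apart from each other for some members. They differed by over 0.5 log2 units for 8 of the 42 genes measured, namely Ccnd1, Cdk6, Cdkn1b, Mcm6, Tk1, Aurkb, Birc5 and Ube2c. The wild-type arrays spanned over 0.5 log2 units for 7 of the 42. Knockout replicate 2 was alone the highest or the lowest of the 5 arrays for 17 of 35 members tested (48.6%), as it was for 46.4% of all genes tested. Knockout replicate 1 was so for 9 members (25.7%) against 37.4% of all genes. The knockout arrays lay on opposite sides of the wild-type mean for 5 members tested, 14.3% against 26.0% of all genes tested.

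Which members passed changed with the single array left in the knockout group. The part of the wild-type spread in this was not tested. With knockout replicate 2 as the only knockout array, 4 members had an adjusted p below 0.05 with limma, among 1072 genes in all, 11.4% of the members tested against 6.44% of all genes. These were Ccnd1, Bub1b and Cdc20 with higher and Tyms with lower signals there. With knockout replicate 1 as the only knockout array, no member passed, among 389 genes that did (2.34%). These fits take the spread of the lone array from the wild-type group. The wild-type SD was 0.061 for Ccnd1, 0 for Bub1b, 0.015 for Cdc20 and 0.0027 for Tyms. Cdk6 and Cdkn1b differed by -0.83 and -0.74 in knockout replicate 2 and did not pass. Their wild-type SDs were 0.77 and 0.12. Cenpf and Mcm4, with wild-type SDs of 0 and 0.0062, did not pass in that fit either. Knockout replicate 2 is the array with the high Xist signal, and in the first of these fits that difference and genotype cannot be told apart.

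**Figure D4:**
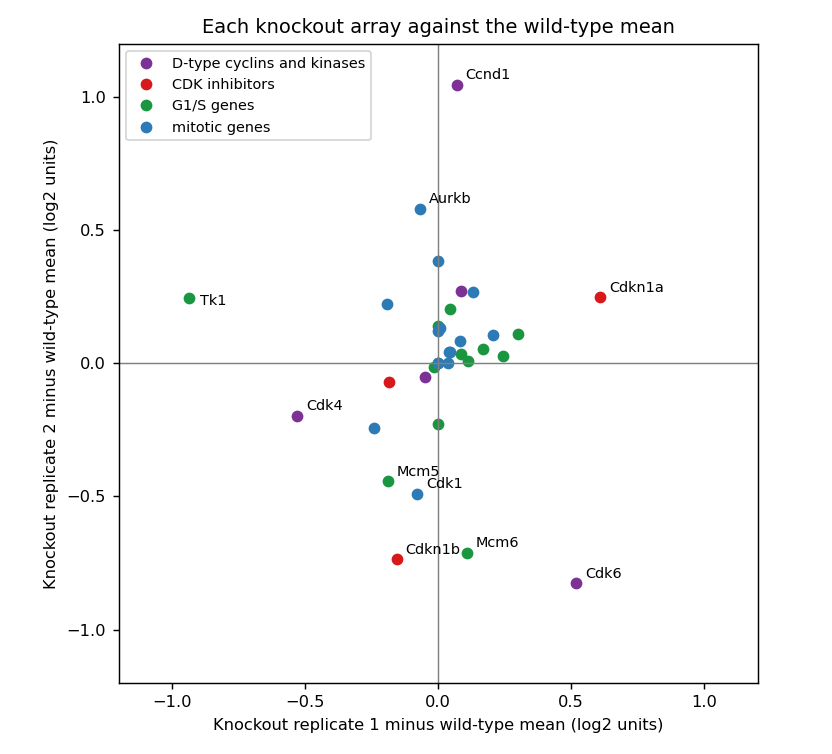
Each point is 1 of the 35 members tested, placed by its difference from the wild-type mean in knockout replicate 1 (horizontal) and replicate 2 (vertical), in log2 units. Both axes share the wild-type mean. Genes beyond 0.4 on either axis are named; Ccnd1 lies highest and Cdk6, Cdkn1b and Mcm6 lowest on the replicate 2 axis, and Tk1 lies farthest left on the replicate 1 axis.

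Equal values limit what the spread can say. Of the 35 members tested, 14 had 5 distinct values over the 5 arrays (40.0%, against 36.4% of genes tested), and 2, Ccne1 and Aurka, had a single value. For 12 of the 42 members measured both knockout arrays had exactly the same value. The arrays of Plk1 and Cdc20 were among the tied ones, with 4 distinct values each, and their wild-type spread rests on 2 equal values of 3.

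Further genes of the cycle, from a list of 74, were read from the same fit. Of 70 measured, 58 were tested, and 0 had an adjusted p below 0.05 with limma. Differences were above 0 for 28 and below 0 for 28, where 57.1% and 39.9% of all genes tested were so. At an unadjusted p below 0.05 were 2 of the 58, where 7.64% of all genes tested had such a p. These 2 were Gins2, of the replicative helicase, and Cks1b, a small CDK-binding protein gene. Gins2 read 3.94, 4.17 and 4.17 in wild type and 4.44 and 4.57 in knockout, a difference of 0.42 (SE 0.10) with limma's adjusted p of 0.518. Cks1b read 4.50, 5.04 and 4.38 in wild type and 5.29 and 5.71 in knockout, a difference of 0.86 (SE 0.27) with limma's adjusted p of 0.581. Among the 58 genes tested, each knockout value exceeded every wild-type value for 5, Gins2, Cks1b, Rb1, Prim1 and Cdca8, against the background of 11.6%. The reverse held for 3, Smc4, Gmnn and Cdt1, against 6.32%. By set, 0 of 11 genes of the Rb family and E2F factors, 0 of 6 DREAM and mitotic transcription genes, 0 of 4 other CDK inhibitors and 0 of 12 mitosis genes reached an unadjusted p of 0.05. The same held for 0 of 4 protein turnover genes, while the sets of other CDKs and of licensing and replication held 1 each, of 8 and of 13 tested.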

How the data were processed

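Biotin-labelled total RNA was run on Affymetrix arrays, according to the labels and, per the submitters' processing notes, processed with Affymetrix Expression Console and RMA. Versions, settings and the genome build are not given in the sources used here. The values deposited by the authors are log2 probe-set signals, and RMA as commonly run would hide a shift common to all transcripts. Of 41345 probe sets, 23521 had 1 gene symbol, 1814 several and 16010 none. The brightest probe set by mean stood for each gene, and the dimmest 25% of genes were not tested. Genotypes were compared by limma 3.58.1 (R 4.3.3; lmFit and eBayes without a block), adjusted by Benjamini-Hochberg over 16635 genes, threshold 0.05; the fit was checked on simulated data. The number of arrays limits the precision. Members, role groups and lists were chosen with earlier results of these data known. By rule, array values are given for a set of main members and for each with an unadjusted p below 0.05 or no overlap of the groups; others were picked after their values were seen. Of the remaining marker lists, erythrocyte markers had no probe set of their own. T, B and NK cell, mast cell and eosinophil, and fibroblast markers had array means between 3.61 and 5.37. Single genes were brighter: Cd3g of the T cell list read 9.10 to 9.74 over the arrays. Cpa3 of the mast cell and eosinophil list read 6.43 to 7.40. Alternatives covered filters, probe sets, normalization, variance model, array weights, a block, each array left out and the promoter window.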

Additional observations from a re-analysis of the deposited data

How the results depend on the processing

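No member or gene passed an adjusted p of 0.05 under the alternatives that kept all 5 arrays, nor at a threshold of 0.1. Leaving out 1 array in turn gave 0 to 1072 genes and 0 to 4 members past it, 0 to 10 members at an unadjusted p below 0.05 against 2, 5 to 20 members of 35 without overlap against 5, and a median difference of the members of 0.00663 to 0.0700. The counts of 10 and 20 came without knockout replicate 1, where 22.4% and 54.0% of all genes met the same rules. Of the members at an unadjusted p below 0.05, 0 remained with the 50% dimmest genes left out, where Cdc20 was not tested, with quantile normalization, with median centring and among genes with at least 4 distinct values, the last chosen after seeing the data. With robust eBayes Cdc20 alone had such a p. With the replicate block neither had, and Cdkn1a did, so that 1 member was counted in each. Members without overlap numbered 10 after quantile normalization, where 30.7% of all genes did not overlap. The median difference, 0.0446 in the text's fit, was 0.0306 with no filter, 0.00737 with the 50% dimmest left out, 0.0338 after median centring, 0.0700 with the replicate block and 0.0598 with at least 4 distinct values. Same-numbered arrays deviated together with r of -0.0457 and 0.143 across genes, so the numbers were not used as pairs. Of the 35 members, 12 had differences of both signs over the 15 alternatives and the fit in the text. Motif shares with 150 bases before the start were 41.7% for CHR, 69.4% for CCAAT and 25% for E2F. The number of arrays limits the precision, and 7 mitotic members were too dim to be tested.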
